A study of Rattus norvegicus with 132 samples.

Results

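The genes described here are 40 rat genes that interferons are known to induce, followed through the epithelium of the colon and the jejunum after abdominal irradiation and after treatment with extracts called compound Kushen. They were chosen by their gene symbols. All 40 symbols had a row in the gene count tables, which hold 21837 genes, and they cover transcription regulators, sensors of foreign nucleic acid, antiviral effectors, guanylate-binding proteins, chemokines and smaller groups. The samples came from Sprague Dawley rats, an outbred laboratory stock. Irradiated rats received 5 fractions of 4 Gy to the abdomen from day 0 to day 4, and epithelial tissue of both organs was taken on day 4 or on day 7. Non-irradiated, untreated rats were the baseline. The irradiated groups were left without a drug ("untreated" below), or given water by mouth (oral vehicle), compound Kushen powder by mouth (powder), 0.25% Tween-80 with 25 mM HEPES into the peritoneal cavity (injected vehicle), or compound Kushen injection by the same route (injection). The labels give no dose of the extracts. Each of the 22 combinations of tissue, treatment and day holds 6 libraries, 132 in all.

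Interferons are secreted proteins that cells release on meeting viral or misplaced nucleic acid. Type I and type III interferons act through receptors that activate a complex of STAT proteins and IRF9, which binds the interferon-stimulated response element (ISRE) in the promoters of its target genes. Interferon-γ acts through its own receptor and the gamma-activated site (GAS). The intestinal epithelium responds to both kinds, and the induced genes block steps of viral replication, mark infected cells, or attract lymphocytes.

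Libraries held 17196039 to 19800746 counts. Levels are given below as counts per 1e6 counts (CPM) after scaling between libraries, and groups of 6 as the lowest, the median and the highest library. A gene is "called" at a Benjamini-Hochberg adjusted p under 0.05 in edgeR's quasi-likelihood test, adjusted over every gene of that fit. Library names start with 1, 2 or 3, a number whose meaning the labels do not give. It is called the library series here. Non-irradiated, untreated, oral vehicle and powder groups each hold 3 libraries of series 1 and 3 of series 2, so the series entered those fits as a term. All injected groups belong to series 3 and were compared only with each other, since series and route cannot be told apart there. Some fits were repeated with 1 series alone or with another setting. The share of all genes called can change with the setting and is not printed for each. A changed count of called members is therefore not read as a result about the members alone. The libraries read as epithelium: the summed level of 6 epithelial markers was between 12810 and 16144 CPM in non-irradiated colon and between 17736 and 23797 CPM in non-irradiated jejunum.

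The promoters of the members hold the ISRE core more often than rat promoters at large, and some are shown first because the groups of genes below can be read against them. RefSeq sequences of the rat assembly GRCr8, from 250 bases before to 50 bases after each gene start, were matched to 32 of the 40 symbols, with 33 promoters because Gbp1 has 2. The ISRE core, spelled GAAANNGAAA and searched on both strands, was in 20 of the 33 (60.6%), against 1312 of all 33469 rat promoters (3.92%). The GAS core, spelled TTCNNNGAA, was in 9 of 33 (27.3%) against 2970 of all (8.87%). The members were picked as interferon-induced genes, so these shares describe the choice, and a match is not evidence of binding. Ddx58, Dhx58, Ifit1, Ifit2, Isg15, Mx2, Usp18 and Zbp1 were not matched.

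Printed here are the 100 bases just before the gene start for 8 members that hold the ISRE core in that stretch. All 8 were higher in irradiated colon at day 4 and lower there with the powder. Members without a match in the stretch are not printed. Nor are Ifi27, Ifi44, Trim21 and Xaf1, which also hold the ISRE core there. They were called neither in irradiated colon at day 4 nor with the powder there. Bases run 5′ to 3′ along the gene's strand. Capitals mark the ISRE core, which appears as its reverse complement where the match lies on the other strand. The stretches lie at chr2:234005627-234005726 on the plus strand for Gbp2, chr2:233978386-233978485 on the plus strand for Gbp4, chr2:233910899-233910998 on the plus strand for Gbp5, chr1:241527226-241527325 on the plus strand for Ifit3, chr11:78408034-78408133 on the plus strand for Parp14, chr1:205800024-205800123 on the minus strand for Irf7, chr3:67683969-67684068 on the minus strand for Ifih1, chr6:21941054-21941153 on the plus strand for Eif2ak2.
Gbp2: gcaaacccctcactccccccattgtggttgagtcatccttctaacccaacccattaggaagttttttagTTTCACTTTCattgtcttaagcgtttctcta
Gbp4: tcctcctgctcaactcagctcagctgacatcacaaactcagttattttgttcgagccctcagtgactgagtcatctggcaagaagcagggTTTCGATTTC
Gbp5: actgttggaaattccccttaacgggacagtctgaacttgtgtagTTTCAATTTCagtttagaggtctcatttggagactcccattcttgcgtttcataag
Ifit3: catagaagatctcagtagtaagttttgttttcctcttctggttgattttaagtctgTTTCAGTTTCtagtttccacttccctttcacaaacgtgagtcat
Parp14: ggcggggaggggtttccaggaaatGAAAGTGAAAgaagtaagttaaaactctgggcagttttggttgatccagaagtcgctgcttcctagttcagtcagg
Irf7: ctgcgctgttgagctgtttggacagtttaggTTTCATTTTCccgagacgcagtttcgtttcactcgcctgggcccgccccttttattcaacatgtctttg
Ifih1: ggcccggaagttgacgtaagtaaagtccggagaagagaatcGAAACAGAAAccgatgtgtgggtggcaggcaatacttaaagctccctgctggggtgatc
Eif2ak2: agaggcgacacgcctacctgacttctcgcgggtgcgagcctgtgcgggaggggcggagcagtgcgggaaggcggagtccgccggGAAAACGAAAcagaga

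For contrast, the same stretch is printed for Ifitm3, which was higher in irradiated colon and not called with the powder, and for Oas1a, which was lower in irradiated colon. Both were likewise taken from members with the ISRE core in that stretch, and in Oas1a there are 2 matches that overlap. They lie at chr1:205541759-205541858 on the minus strand for Ifitm3 and chr12:41330366-41330465 on the plus strand for Oas1a.
Ifitm3: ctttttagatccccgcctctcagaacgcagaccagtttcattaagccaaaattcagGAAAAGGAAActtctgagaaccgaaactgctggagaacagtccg
Oas1a: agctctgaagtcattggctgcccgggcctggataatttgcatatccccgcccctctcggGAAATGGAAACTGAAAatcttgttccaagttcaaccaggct

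Some members were hardly measured. Isg15, which encodes the ubiquitin-like protein after which its conjugation system is named, had 0 counts in all 132 libraries, while its conjugation and deconjugation genes Herc6 and Usp18 were counted throughout. Interferon-induced Isg15 is usually abundant, and how reads were assigned to its row is not known here, so its 0 is not read as absent or low expression. Gbp1 had 423 counts in all, spread over 70 libraries. After the filter on low counts, 39 of the 40 members were tested in colon and 38 in jejunum, Gbp1 and Isg15 being the ones left out there. Reads of the guanylate-binding proteins, the Ifit genes, Mx1 with Mx2 and the Oas genes can be split between near-identical copies, so the values of single genes in these families are uncertain. The sources used here do not give the strand setting of the counting, and reads of overlapping antisense genes cannot be told apart from them.

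**Figure D1:**
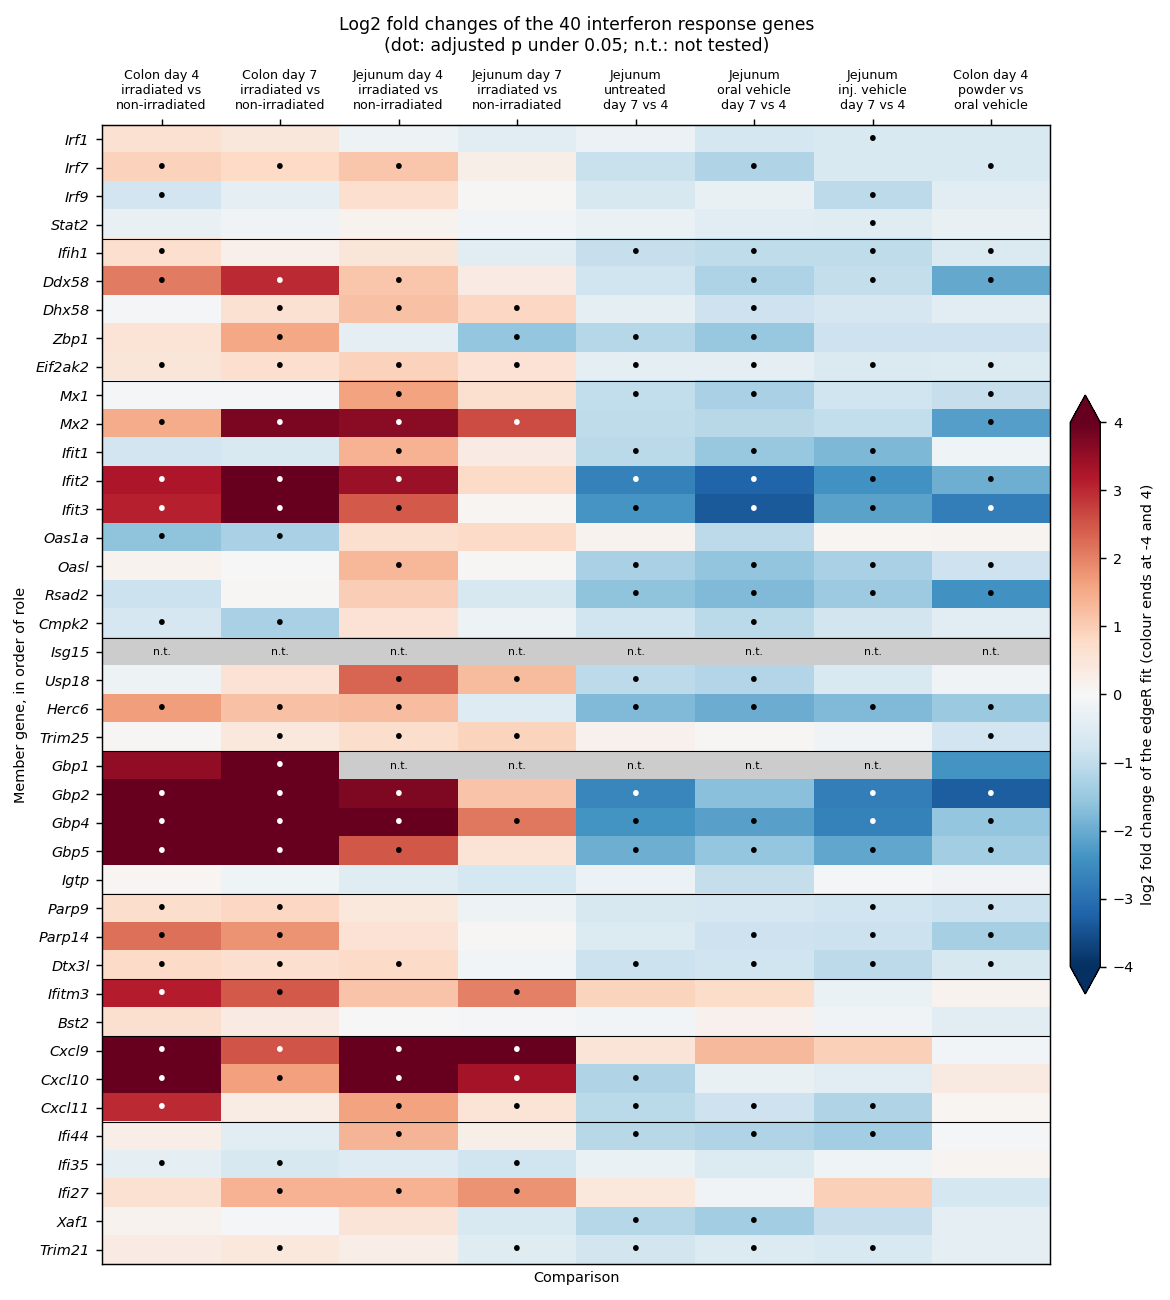
Fitted log2 fold changes of the 40 members (rows, in order of their roles) in 8 comparisons (columns), from blue (lower) to red (higher), with a dot where the adjusted p is under 0.05 and grey cells where a gene was not tested. Red cells with dots gather in the irradiation comparisons, 18 higher members in colon at day 4 and 22 in jejunum at day 4, and blue ones in the day 7 against day 4 columns of jejunum and in the powder column.

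Before irradiation, the 2 tissues held these genes at different levels. In non-irradiated jejunum 22 of 39 tested members were higher and 6 lower than in non-irradiated colon, in a test on 84 libraries. Both tissues were scaled together for it, so the CPM of this comparison differ from those given below for 1 tissue alone. Of all 13741 genes in that test, 70.5% were called, 29.4% higher and 41.1% lower in jejunum. The members' median log2 difference was 0.87, against -0.22 over all genes. The 2 widest gaps were in sensors of nucleic acid, Zbp1 and Ddx58. Zbp1, a sensor of Z-form nucleic acid that can start necroptosis, was at 0.582, 0.754 and 1.36 CPM (lowest, median, highest) in colon and at 36.6, 52.6 and 82.8 CPM in jejunum. The ranges lay far apart, with a 66.2-fold difference (log2 6.05 ± 0.53 SE, adjusted p = 2.64e-16).

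Ddx58, the gene of the RNA sensor RIG-I, stood at 1.59, 2.36 and 3.07 CPM in colon against 38.3, 81.9 and 115 CPM in jejunum, 37.7-fold higher (log2 5.24 ± 0.49, adjusted p = 2.07e-15). The other sensors lay closer together, Ifih1 being 2.09-fold and Eif2ak2 1.37-fold higher in jejunum and Dhx58 not called (log2 0.42 ± 0.26, adjusted p = 0.150). Ifit3, an antiviral RNA-binding partner of the other Ifit proteins, was 23.5-fold higher in jejunum. Herc6 (9.54-fold) and Parp14 (9.42-fold), an ADP-ribosyltransferase, were higher too. The direction was the opposite for Cxcl9 and Cxcl10, chemokines that attract activated T cells, which were 6.31-fold and 3.79-fold lower in jejunum. Mx1, a GTPase that blocks viral replication in the nucleus, was 2.56-fold lower in jejunum, and Oas1a, which makes the activator of RNase L, was lower as well (log2 -1.25, adjusted p = 0.0368). With series 1 alone 23 members were called, and with series 2 alone 26.

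In colon at day 4, irradiation without a drug raised the guanylate-binding proteins, the chemokines and part of the antiviral genes, and it lowered a few of the classical antiviral genes. Of 39 members, 18 were higher and 4 lower than in non-irradiated colon. Of all 13306 genes 46.9% were called, 24.6% higher and 22.3% lower. Groups of libraries did not overlap for 18 of the 39 members and for 26.6% of all genes. The members' median log2 change was 0.60, against 0.02 over all genes. In bulk tissue a change in the number of cells of a type and a change in RNA per cell cannot be told apart, and that holds for every value below.

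The guanylate-binding proteins, which coat intracellular pathogens and feed inflammasomes, moved farthest. Gbp4 was at 0.326, 0.561 and 1.08 CPM in non-irradiated colon and at 21.8, 53.7 and 150 CPM at day 4, 104-fold higher (log2 6.71 ± 0.65, adjusted p = 8.48e-10). Gbp2 went from 0.652, 2.10 and 4.78 CPM to 32.2, 158 and 721 CPM (log2 6.54 ± 0.80, adjusted p = 8.71e-08). Gbp5 went from 1.14, 1.72 and 2.79 CPM to 22.9, 48.4 and 72.7 CPM (log2 4.69 ± 0.38, adjusted p = 2.44e-11). None of the 3 had overlapping groups, although Gbp2 spanned a wide range among the irradiated libraries and its change was 4.78 on the log2 scale within series 1 and 7.93 within series 2. Igtp, an immunity-related GTPase, was not called, at 20.4, 23.6 and 25.6 CPM before and 18.0, 26.3 and 27.9 CPM at day 4 (log2 0.09 ± 0.17, adjusted p = 0.703). Gbp1 had no count in non-irradiated colon and at most 0.169 CPM at day 4, and was not called (adjusted p = 0.0686).

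All 3 chemokines of the CXCR3 receptor were higher. Cxcl9 was at 0.302, 0.636 and 1.59 CPM without irradiation and at 7.32, 15.7 and 20.1 CPM at day 4, 21.1-fold higher (log2 4.40 ± 0.39, adjusted p = 1.71e-10). Cxcl10 was at 3.26, 3.90 and 5.23 CPM against 28.5, 89.6 and 121 CPM (log2 4.30 ± 0.42, adjusted p = 1.23e-09). Cxcl11 was at 6.67, 12.7 and 16.5 CPM against 51.6, 93.3 and 131 CPM, 7.95-fold higher (log2 2.99 ± 0.38, adjusted p = 1.5e-07). Every irradiated library lay above every non-irradiated one for each of them.

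The antiviral effectors split. Ifit2, at 1.57, 2.76 and 3.39 CPM before and 13.8, 20.5 and 39.3 CPM at day 4, was 9.32-fold higher (adjusted p = 1.01e-06). Ifit3 was at 0.226, 0.468 and 0.786 CPM against 1.76, 3.25 and 10.1 CPM (log2 3.12 ± 0.54, adjusted p = 2.48e-05). Mx2, a GTPase related to Mx1, was higher by 1.48 ± 0.53 on the log2 scale (adjusted p = 0.0217), while Mx1 stayed at 6.62, 10.4 and 13.6 CPM before and 6.28, 10.1 and 13.2 CPM after (log2 -0.06 ± 0.27, adjusted p = 0.863). Both groups of Mx1 values cover the same range.

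Oas1a was lower at day 4: 55.7, 67.7 and 86.3 CPM without irradiation against 3.88, 23.6 and 33.7 CPM, 3.06-fold lower with no overlap (log2 -1.62 ± 0.51, adjusted p = 0.00965). Cmpk2, a mitochondrial nucleotide kinase, went from 35.3, 45.5 and 62.1 CPM to 11.6, 33.1 and 42.04 CPM (log2 -0.69 ± 0.24, adjusted p = 0.0194), with overlap. Ifi35, an interferon-induced leucine zipper protein, was lower (log2 -0.37 ± 0.16, adjusted p = 0.0498). So was Irf9, the DNA-binding partner of the STAT proteins, at under 1 CPM in both groups (log2 -0.76 ± 0.27, adjusted p = 0.0225). Of the effectors 3 of 9 were higher and 2 lower. Ifit1, Oasl, Rsad2 and Mx1 were not called.

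Among the sensors, 3 of 5 were higher. Ddx58 was at 1.80, 2.73 and 3.53 CPM before and 5.19, 8.19 and 32.7 CPM at day 4, 4.19-fold higher (adjusted p = 0.000298). Ifih1, the gene of the RNA sensor MDA5, rose by 0.66 ± 0.17 and Eif2ak2, the double-stranded RNA-activated kinase PKR, by 0.48 ± 0.11 on the log2 scale (adjusted p = 0.00171 and 0.000878). Zbp1 was at 0.661, 0.868 and 1.58 CPM before and 0.782, 1.40 and 2.73 CPM after, and was not called (log2 0.54 ± 0.47, adjusted p = 0.354). Dhx58, a regulator of the other 2 RNA helicases, was not called either.

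Of the regulators, Irf7, which amplifies interferon production, was at 42.1, 49.6 and 63.8 CPM before and 55.6, 97.2 and 137 CPM at day 4, 1.88-fold higher with some overlap (adjusted p = 0.000519). Irf1, at 62.4, 153 and 189 CPM before and 120, 210 and 299 CPM after, was not called (log2 0.60 ± 0.28, adjusted p = 0.0735). Stat2, at 75.2, 79.3 and 86.8 CPM before and 50.4, 64.6 and 79.1 CPM after, was not called (log2 -0.29 ± 0.12, adjusted p = 0.0558). The 3 genes of the PARP9, PARP14 and DTX3L group, which ADP-ribosylate and ubiquitinate proteins, were all higher. Parp14 went from 17.6, 19.7 and 27.8 CPM to 48.9, 105 and 130 CPM, 4.57-fold higher with no overlap (adjusted p = 2.33e-08). Dtx3l went from 17.2, 19.9 and 23.4 CPM to 23.5, 31.0 and 54.1 CPM, 1.71-fold higher (adjusted p = 0.000684), its lowest irradiated library touching the highest non-irradiated one.

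Herc6 was 3.19-fold higher (adjusted p = 4.9e-06), while Usp18 and Trim25, a ubiquitin ligase for RIG-I, were not called. Ifitm3, a membrane protein that blocks viral entry, was at 0.421, 0.689 and 1.68 CPM before and 3.30, 7.39 and 10.8 CPM at day 4, 8.83-fold higher (adjusted p = 6.14e-06). Bst2, which tethers budding virus to the cell, was at 1.57, 2.26 and 2.99 CPM against 2.14, 3.46 and 5.83 CPM and was not called (log2 0.63 ± 0.35, adjusted p = 0.137). Ifi44, Ifi27, Xaf1 and Trim21 were not called. Series 1 alone gave 14 called members with a median of 0.52 and series 2 alone 18 with a median of 0.66, and all 22 called members had one direction in both series.

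**Figure D2:**
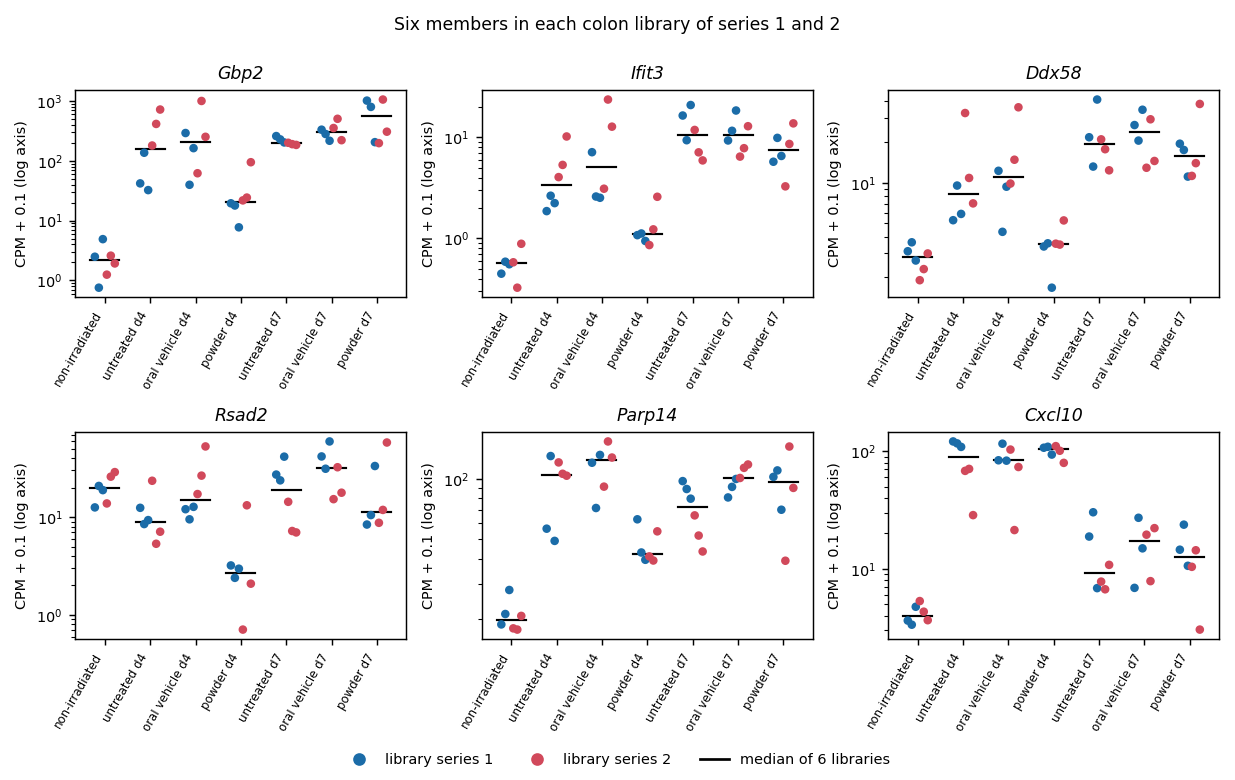
CPM of 6 members in every colon library of the non-irradiated, untreated, oral vehicle and powder groups (plus 0.1, on a log axis), 1 point a library coloured by library series, with the group median as a bar. Gbp2 rises from at most 4.78 CPM without irradiation to at least 32.2 CPM in untreated colon at day 4, and Ifit3 is lowest among the irradiated groups in the powder group at day 4.

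Markers of other cells moved along in irradiated colon. The summed level of 6 neutrophil markers was 0.240, 0.666 and 1.62 CPM in non-irradiated colon and 7.87, 41.7 and 117 CPM at day 4, and all 4 of them that were tested were higher. Elane was at 0 counts in non-irradiated colon. The 10 macrophage and monocyte markers summed to 137, 215 and 257 CPM before and 259, 340 and 491 CPM at day 4, with 7 of 10 higher. All 6 fibroblast markers were higher, with sums of 4.99, 10.9 and 13.1 CPM before and 29.5, 59.0 and 105 CPM after. None of the 6 epithelial markers was called. The part of these cells in the members' changes was not tested.

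At day 7 in colon the antiviral effectors stood higher than at day 4 in several cases and the chemokines lower. Against the same non-irradiated libraries, 22 of 39 members were higher and 3 lower. The background was wider too: 63.6% of all genes were called, 32.9% higher and 30.8% lower, so the members' share of calls is near that of all genes. Groups did not overlap for 17 of 39 members and for 41.7% of all genes. Their median log2 change was 0.61 against 0.02. The share of mitochondrial counts was 12.3 ± 1.26% (SD, n = 6) in non-irradiated colon, 9.16 ± 1.02% at day 4 and 3.95 ± 0.607% at day 7. With that share as a covariate, 2 members were called at day 7, where 2.04% of all genes were, and 17 at day 4.

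Gbp2 was at 184, 201 and 259 CPM at day 7 (log2 6.58 ± 0.80, adjusted p = 1.26e-08), a narrow range beside that at day 4. Gbp4 was at 18.9, 28.5 and 63.2 CPM, 61.9-fold above non-irradiated colon (adjusted p = 1.11e-09), and Gbp5 at 21.6, 39.2 and 52.7 CPM, 19.9-fold above (adjusted p = 3.32e-11). Gbp1 was counted at day 7, at 0.0884, 1.19 and 1.72 CPM from 114 counts, at least 37.7-fold higher against a floor of 3 counts over the 6 non-irradiated libraries, which held none (adjusted p = 1.13e-05). None of these 4 genes overlapped with non-irradiated colon.

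Ifit3 was at 5.82, 10.5 and 20.8 CPM at day 7, 26.6-fold above non-irradiated colon (log2 4.73 ± 0.56, adjusted p = 8.01e-09). Ifit2 was at 16.4, 44.6 and 88.6 CPM, 18.3-fold above (adjusted p = 2.73e-09). Mx2 went from 1.99, 2.58 and 3.70 CPM to 10.1, 38.2 and 59.3 CPM, 13.7-fold (adjusted p = 5.52e-07), and Ddx58 reached 12.3, 19.2 and 41.2 CPM, 7.95-fold (adjusted p = 6.32e-07). Zbp1 was at 1.39, 2.48 and 4.60 CPM, higher by 1.55 ± 0.47 on the log2 scale (adjusted p = 0.00432). Ifi27, a small mitochondrial protein, was higher by 1.40 ± 0.31.

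Some antiviral genes were lower at day 7. Cmpk2 was at 11.6, 19.6 and 31.6 CPM, 2.44-fold lower with no overlap (log2 -1.29 ± 0.25, adjusted p = 2.78e-05). Oas1a was at 7.25, 27.6 and 56.8 CPM, 2.44-fold lower (log2 -1.28 ± 0.50, adjusted p = 0.0245), and its highest library reached the non-irradiated range. Ifi35 was at 24.2, 29.8 and 33.9 CPM and lower (log2 -0.64 ± 0.16, adjusted p = 0.000572). With mitochondrial share as a covariate the change of Oas1a was 0.19 on the log2 scale, the other direction, and that of Trim25, higher by 0.44 ± 0.17 without it, was -0.19.

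Of the remaining genes followed in every irradiation comparison, Irf7 was at 65.1, 87.0 and 120 CPM at day 7 and higher by 0.81 ± 0.20. Dtx3l was higher by 0.68 ± 0.18. Ifitm3 was at 1.11, 3.22 and 11.0 CPM and higher by 2.47 ± 0.49, now overlapping with non-irradiated colon. Cxcl10 was at 6.61, 9.21 and 30.2 CPM, 3.09-fold above non-irradiated colon (adjusted p = 0.00054), and Cxcl9 was higher by 2.51 ± 0.38. Cxcl11 was at 5.85, 9.30 and 39.1 CPM and not called (log2 0.30 ± 0.36, adjusted p = 0.481). Irf1 (log2 0.46 ± 0.28), Stat2 (-0.15 ± 0.12), Mx1 (-0.03 ± 0.27), Igtp (-0.18 ± 0.17) and Bst2 (0.34 ± 0.35) were not called. Series 1 alone called 23 members and series 2 alone 14.

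Day 7 was also set directly against day 4 in untreated colon. Here 5 of 39 members were higher and 6 lower, against 36.5% of all genes, 18.0% higher and 18.5% lower. The chemokines were lower: Cxcl11 by 6.47-fold (log2 -2.69 ± 0.37, adjusted p = 1.76e-06), Cxcl10 by 6.36-fold (log2 -2.67 ± 0.39, adjusted p = 3.08e-06) and Cxcl9 by 3.69-fold (log2 -1.88 ± 0.34, adjusted p = 4.91e-05). For Cxcl9 and Cxcl11 the 2 days did not overlap, 2 of 39 members against 10.1% of all genes. Mx2 was 4.91-fold higher at day 7 (log2 2.30 ± 0.52, adjusted p = 0.000788), Ifit3 3.05-fold higher (log2 1.61 ± 0.47, adjusted p = 0.00686), and Gbp1 rose from at most 0.169 CPM to a median of 1.19 CPM. With mitochondrial share as a covariate 3 members were called in place of 11, and with only these 2 groups in the fit 7. In oral vehicle rats, other libraries, 4 of 39 members were lower at day 7 and 0 higher, against 27.4% of all genes, 12.7% higher and 14.7% lower. They were Cxcl10 (log2 -2.25 ± 0.38), Cxcl11 (-2.07 ± 0.36), Cxcl9 (-1.78 ± 0.33) and Ifih1 (-0.60). Series 1 alone called 10 there and series 2 alone 0.

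In jejunum at day 4, irradiation raised 22 of 38 members and lowered 0. Of all 12501 genes 44.0% were called, 25.0% higher and 18.9% lower. The members' median log2 change was 1.12 against 0.05, and 34 of 38 had a change above 0. The lists with most calls were the effectors, 6 of 9, the ISG15 system, 3 of 3 tested, the guanylate-binding proteins and Igtp, 3 of 4, and the chemokines, 3 of 3. The calls in jejunum differed between the library series: series 1 alone called 5 members (median 0.46, with 15.0% of all genes called) and series 2 alone 28 (median 1.71, with 43.6% of all genes).

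Cxcl10 was at 0.486, 1.17 and 1.72 CPM in non-irradiated jejunum and at 11.0, 24.3 and 50.6 CPM at day 4 (log2 4.54 ± 0.47, adjusted p = 5.14e-09). Cxcl9 was at 0, 0.0318 and 0.372 CPM against 1.30, 3.70 and 5.49 CPM (log2 4.95 ± 0.73, adjusted p = 3e-06). Gbp4 was at 0.606, 2.02 and 2.62 CPM against 11.5, 46.3 and 87.8 CPM, 22.3-fold higher (adjusted p = 4.25e-08). None of these 3 overlapped, nor did Cxcl11, Eif2ak2, Mx2 and Ifit2, which makes 7 of 38 members, against 10.0% of all genes.

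Gbp2 was at 0.455, 2.52 and 4.81 CPM without irradiation and 4.56, 37.3 and 96.8 CPM at day 4, 13.4-fold higher (log2 3.74 ± 0.74, adjusted p = 0.000152). The series lay apart in it. In series 1 the 3 irradiated libraries were at 4.56, 5.52 and 43.3 CPM against 3.62, 4.40 and 4.81 CPM, and in series 2 they were at 31.4, 44.9 and 96.8 CPM against 0.455, 0.694 and 1.42 CPM. Ifit3 was at 5.53, 6.77 and 13.0 CPM against 12.6, 45.6 and 81.3 CPM, 5.43-fold higher (log2 2.44 ± 0.53, adjusted p = 0.000403), with a change of 1.39 within series 1 and 3.30 within series 2.

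Mx2 was at 2.05, 3.78 and 6.33 CPM against 20.3, 48.3 and 100 CPM, and Ifit2 at 1.42, 1.64 and 3.62 CPM against 6.64, 21.9 and 67.6 CPM, 11.0-fold higher (adjusted p = 1.98e-05). Usp18, which removes ISG15 and dampens the type I receptor, was at 2.27, 2.88 and 5.98 CPM against 3.72, 20.1 and 23.7 CPM, 5.01-fold higher with overlap (adjusted p = 0.000143). Mx1 was at 1.35, 3.15 and 7.50 CPM against 3.61, 12.1 and 16.5 CPM (log2 1.62 ± 0.40, adjusted p = 0.00146). Usp18 and Mx1 were not called in colon at day 4.

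Irf7 was at 83.9, 124 and 155 CPM against 79.9, 295 and 375 CPM, 2.17-fold higher (adjusted p = 0.0202). Its lowest irradiated library lay below every non-irradiated one. Eif2ak2, at 53.5, 54.3 and 59.1 CPM against 67.9, 104 and 134 CPM, was higher by 0.92 ± 0.13 (adjusted p = 8.25e-07). Dtx3l was higher by 0.78 ± 0.26 (adjusted p = 0.0162) and Ddx58 by 1.12 ± 0.37 (adjusted p = 0.0137). Not called were Oas1a (log2 0.64 ± 0.47, adjusted p = 0.271), Zbp1 (-0.39 ± 0.39, adjusted p = 0.428), Ifitm3 (1.14 ± 0.91, adjusted p = 0.312), Irf1 (-0.19 ± 0.30), Stat2 (0.15 ± 0.18), Igtp (-0.49 ± 0.38) and Bst2 (0.02 ± 0.43). Of the 22 called members, 21 had the same direction in both series, the other being Ifi27, at -0.062 on the log2 scale within series 1. All 22 lay farther from 0 in series 2.

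**Figure D3:**
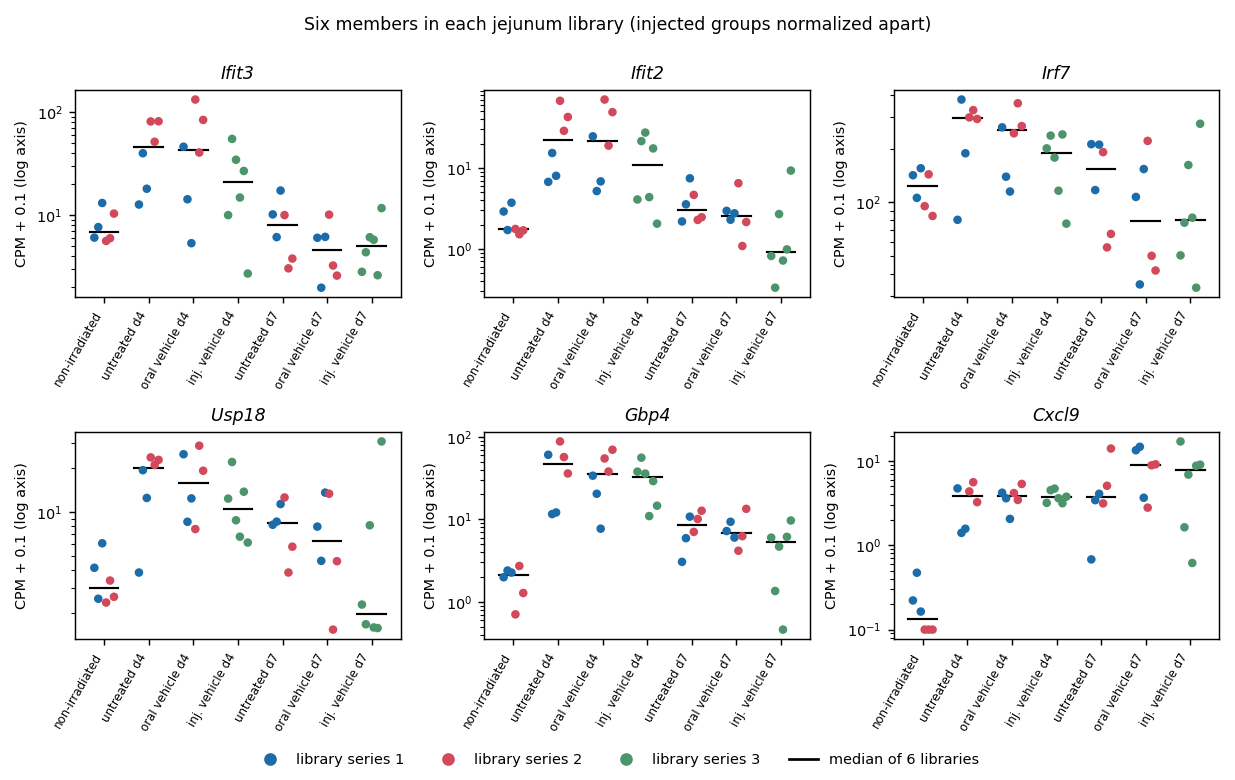
CPM of 6 members in every jejunum library of the non-irradiated, untreated, oral vehicle and injected vehicle groups (plus 0.1, on a log axis), 1 point a library coloured by library series, with the group median as a bar. The injected groups were scaled apart from the others. The day 4 groups spread widely, Ifit3 in untreated jejunum running from 12.6 to 81.3 CPM, and by day 7 its untreated libraries lie between 2.95 and 17.2 CPM.

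At day 7 in jejunum 11 of 38 members were higher and 3 lower than in the same non-irradiated libraries. Of all genes 58.8% were called, 31.4% higher and 27.4% lower, so the members' share of calls was below that of all genes. The median log2 change was 0.23 against 0.02. The chemokines were still higher: Cxcl9 at 0.580, 3.65 and 13.9 CPM (log2 5.47 ± 0.73, adjusted p = 2.8e-07) and Cxcl10 at 3.48, 11.0 and 28.1 CPM (log2 3.33 ± 0.46, adjusted p = 4.33e-07), neither overlapping. In all, 7 of 38 members did not overlap, against 27.0% of all genes. Mx2 was at 6.55, 22.3 and 42.1 CPM, 6.05-fold higher (adjusted p = 0.000181), and Gbp4 at 2.96, 8.47 and 12.6 CPM, 4.28-fold higher (adjusted p = 0.00042). Ifitm3 was higher by 2.03 ± 0.87 (adjusted p = 0.0441), from a median of 0.156 to 1.29 CPM.

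Zbp1 was lower at day 7: 31.6, 45.2 and 70.2 CPM in non-irradiated jejunum against 4.81, 15.8 and 38.0 CPM, 2.90-fold (log2 -1.54 ± 0.40, adjusted p = 0.00156), with overlap. Ifi35 (log2 -0.79 ± 0.29) and Trim21, an antibody receptor of the cytosol (-0.49 ± 0.17), were lower. Ifit3, at 2.95, 7.98 and 17.2 CPM, was not called (log2 0.08 ± 0.51), nor were Gbp2 (1.13 ± 0.70, adjusted p = 0.159), Irf7 (0.23 ± 0.39), Irf1 (-0.44 ± 0.30), Stat2 (-0.11 ± 0.18), Mx1 (0.63 ± 0.39), Oas1a (0.77 ± 0.47), Igtp (-0.72 ± 0.39), Bst2 (-0.08 ± 0.42) and Dtx3l (-0.09 ± 0.26). Series 1 alone called 7 members and series 2 alone 17.

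Members fell in jejunum from day 4 to day 7, and none was called higher. In untreated rats 20 of 38 were lower at day 7 and 0 higher, against 41.0% of all genes, 20.3% higher and 20.7% lower, with a median of -0.88 against 0.03. Ifit2 was 6.48-fold lower (log2 -2.70 ± 0.56, adjusted p = 0.000326), Gbp4 5.22-fold (adjusted p = 0.000126), Ifit3 5.13-fold (adjusted p = 0.000725), and Herc6 3.37-fold (adjusted p = 0.000479). Rsad2, the antiviral protein viperin, went from 28.7, 120 and 242 CPM to 19.2, 45.7 and 71.6 CPM, 3.07-fold lower (adjusted p = 0.00573). The days overlapped in every member, while they did not for 7.96% of all genes. The fall was larger within series 2: within series 1 alone 1 member was called, and it was higher, with a median of -0.19 and 1.33% of all genes called, and within series 2 alone 27 were called with a median of -1.41. Ifit3 changed by -1.06 within series 1 and by -3.70 within series 2. With only these 2 groups in the fit 12 members were called, and without library 6 of the day 7 group 14.

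The same comparison was made in rats given vehicle, in other libraries. With oral vehicle 23 of 38 members were lower at day 7 and 0 higher, against 25.7% of all genes, 11.2% higher and 14.4% lower, with a median of -1.03. Ifit3 went from 5.26, 43.3 and 132 CPM to 1.88, 4.55 and 10.0 CPM, 10.2-fold lower (log2 -3.35 ± 0.54, adjusted p = 5.22e-05), and Ifit2 was 9.19-fold lower. Series 1 alone gave 0 called members, with 12 at an unadjusted p under 0.05 and a median of -0.71, while 0.839% of all genes were called. Series 2 alone gave 22. With injected vehicle, all of series 3, 21 of 38 were lower and 0 higher, against 50.6% of all genes, 25.5% higher and 25.2% lower, with a median of -0.82. Mitochondrial counts made up 18.5 ± 9.06% at day 4 and 6.24 ± 2.26% at day 7 in this arm (SD, n = 6). That share was not fitted as a covariate in the injected groups. Gbp2 went from 11.5, 16.3 and 55.8 CPM to 0.516, 3.81 and 5.77 CPM with no overlap, 6.76-fold lower (log2 -2.76 ± 0.52, adjusted p = 0.000354).

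The 3 untreated and vehicle arms share no library, and 14 members were lower at day 7 in each: 14 of the 20, 14 of the 23 and 14 of the 21. They are Cxcl11, Dtx3l, Eif2ak2, Gbp4, Gbp5, Herc6, Ifi44, Ifih1, Ifit1, Ifit2, Ifit3, Oasl, Rsad2 and Trim21. Of all genes, 20.7%, 14.4% and 25.2% were lower in the untreated, oral vehicle and injected vehicle arms. How many genes were lower in all 3 was not counted. The untreated and oral vehicle arms were tested in one fit with a shared estimate of the spread. In colon of the injected vehicle arm, 1 member was higher and 5 lower at day 7, against 27.4% of all genes, 16.0% higher and 11.4% lower. Lower there were Gbp4 (log2 -1.37), Gbp5 (-1.34), Cxcl11 (-0.92), Ifih1 (-0.86) and Ifi35 (-0.65), and Usp18 was higher by 1.17.

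Lymphocyte markers differed between the days in jejunum as well. Of the NK and cytotoxic markers, 4 were measured, with sums of 8.33, 53.3 and 92.6 CPM in non-irradiated, 5.03, 13.1 and 30.6 CPM in untreated day 4 and 0.404, 0.730 and 5.27 CPM in untreated day 7 jejunum, and all 3 tested were lower at day 7 than at day 4. Klrd1 was at 0 counts at day 7. The 7 measured T cell markers summed to 12.0, 22.4 and 37.3 CPM, 24.9, 54.7 and 98.3 CPM and 14.5, 78.0 and 112 CPM in the same 3 groups, and 3 of 5 tested were lower at day 7 than at day 4. Mitochondrial counts made up 12.3 ± 6.95%, 12.7 ± 5.86% and 5.39 ± 1.83% (SD, n = 6). The part of these changes in the members' fall was not tested.

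The irradiation effects of the 2 tissues differed for part of the members. The difference was tested itself in the fit of 84 libraries. At day 4, 12 of 39 members changed more upward in jejunum than in colon and 5 more downward, against 21.8% of all genes, 13.6% upward and 8.22% downward. The 12 were mostly antiviral and ISG15 genes, among them Usp18 (difference of log2 changes 2.55 ± 0.57, adjusted p = 0.000664), Oas1a (2.28), Ifit1 (2.20), Mx2 (2.16 ± 0.77, adjusted p = 0.0342) and Mx1 (1.72 ± 0.48, adjusted p = 0.00629). The 5 were Gbp2 (-2.73 ± 1.00, adjusted p = 0.0406), Gbp4 (-2.16), Gbp5 (-2.13), Parp14 (-1.57 ± 0.36, adjusted p = 0.000884) and Cxcl11 (-1.34). Series 1 alone called 2 such differences and series 2 alone 8.

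At day 7 the balance was the other way, with 4 members more upward and 11 more downward in jejunum, against 39.6% of all genes, 25.4% upward and 14.2% downward. Gbp2 differed by -5.37 ± 1.02 (adjusted p = 2.44e-05), Ifit3 by -4.57 ± 0.78 (adjusted p = 3.9e-06), Gbp4 by -3.76, Gbp5 by -3.67 and Ifit2 by -3.35. Cxcl9 (3.07 ± 0.84, adjusted p = 0.00282), Oas1a (2.14), Cxcl10 (1.80) and Cmpk2 (1.15) differed the other way. In day 4 irradiated libraries, 14 of the 18 members higher in colon and 14 of the 22 higher in jejunum were the same genes. This overlap was not counted over all genes. Colon and jejunum libraries of one number may come from one rat, which the labels do not say.

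The oral powder was compared with oral vehicle, the question being whether the extract alters the irradiated tissue. In colon at day 4, 18 of 39 members were lower with the powder and 0 higher. Only 11.8% of all genes were called, 4.89% higher and 6.90% lower. The members' median log2 change was -0.61 against 0.01, and 34 of 39 had a change below 0. Lower were 6 of 9 antiviral effectors, 3 of 5 sensors, 3 of 5 guanylate-binding proteins and related GTPases, 2 of 3 tested genes of the ISG15 system, all 3 of Parp9, Parp14 and Dtx3l, and 1 of 4 regulators. None of the 3 chemokines, the 2 membrane factors and the other 5 induced genes was called.

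Ifit3 was at 2.43, 5.02 and 23.6 CPM with oral vehicle and 0.760, 0.999 and 2.48 CPM with the powder, 6.74-fold lower (log2 -2.75 ± 0.50, adjusted p = 0.00152). Gbp2 was at 39.6, 207 and 1003 CPM against 7.60, 20.5 and 94.6 CPM, 9.93-fold lower (log2 -3.31 ± 0.67, adjusted p = 0.00244). Rsad2 was at 9.40, 14.9 and 52.7 CPM against 0.608, 2.58 and 13.1 CPM, 5.36-fold lower (adjusted p = 0.0083). In each of the 3 genes the lowest vehicle library lay below the highest powder library, and the medians lay far apart.

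Mx2 was at 1.25, 9.07 and 51.9 CPM with vehicle and 1.38, 2.70 and 5.27 CPM with the powder, 4.60-fold lower (log2 -2.20 ± 0.54, adjusted p = 0.0083). The vehicle libraries spread widely in it, and the difference was -0.98 within series 1 and -2.79 within series 2. Ddx58 was at 4.24, 11.0 and 36.1 CPM against 1.58, 3.42 and 5.17 CPM, 4.13-fold lower (adjusted p = 0.00316). Ifit2 was at 18.3, 47.8 and 106 CPM against 8.61, 13.6 and 20.4 CPM, 3.89-fold lower (adjusted p = 0.00316).

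In 4 of 39 members the groups did not overlap, against 1.90% of all genes. Herc6 was at 23.0, 41.5 and 60.4 CPM with vehicle and 11.1, 14.5 and 17.3 CPM with the powder, 2.79-fold lower (log2 -1.48 ± 0.26, adjusted p = 0.00134). Parp14 was at 71.4, 124 and 153 CPM against 39.0, 41.8 and 62.7 CPM, 2.49-fold lower (adjusted p = 0.0018). Eif2ak2 was at 66.8, 83.9 and 94.6 CPM against 47.8, 56.0 and 64.2 CPM, 1.47-fold lower (adjusted p = 0.00263). Oasl, which encodes an OAS-like protein, was at 38.3, 53.3 and 119 CPM against 31.6, 36.0 and 37.4 CPM (log2 -0.82, adjusted p = 0.0269). These are smaller changes than those of Gbp2 or Ifit3, in genes with tighter groups.

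Irf7 was at 82.2, 107 and 126 CPM with vehicle and 50.5, 68.0 and 94.9 CPM with the powder (log2 -0.62 ± 0.20, adjusted p = 0.0392). Also lower were Gbp4 (log2 -1.54), Gbp5 (-1.40 ± 0.32), Mx1 (-0.91), Parp9 (-0.86), Trim25 (-0.77), Dtx3l (-0.64) and Ifih1 (-0.56). The chemokines and Ifitm3 were not called. Cxcl10 was at 21.3, 83.3 and 116 CPM with vehicle and 79.5, 104 and 110 CPM with the powder (log2 0.36 ± 0.36, adjusted p = 0.539). Cxcl9 changed by -0.10 ± 0.32 (adjusted p = 0.872), Cxcl11 by 0.07 ± 0.35 (adjusted p = 0.921) and Ifitm3 by 0.14 ± 0.44 (adjusted p = 0.868). Gbp1 had 17 counts with vehicle and 3 with the powder, a ratio of 5.71 with a 95% counting interval of 1.65 to 30.4.

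The comparison has 3 libraries of each series per group. All 18 called members were lower with the powder in both series, but neither series alone called any: series 1 had 17 members at an unadjusted p under 0.05 and a median of -0.50, with 3 of all genes called, and series 2 had 18 and -0.70, with 25 of all genes called. Gbp2 changed by -3.49 and -3.23, Ifit3 by -2.09 and -3.16 and Rsad2 by -2.06 and -2.62 in series 1 and 2. Leaving out 1 library at a time gave 12 to 18 called members, the lowest without library 4 of the powder group, and 11 were called every time.

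**Figure D4:**
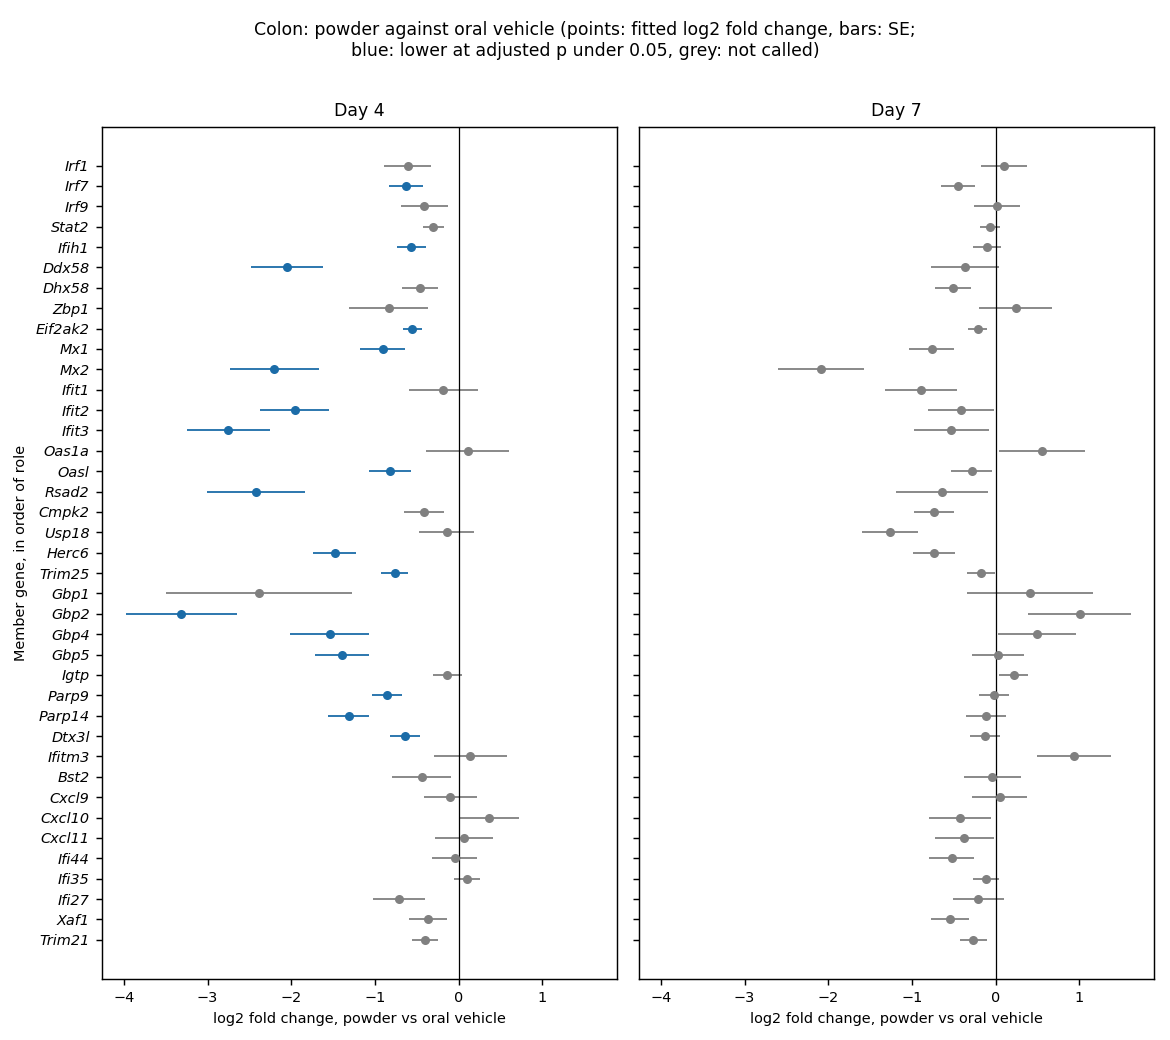
Fitted log2 fold change of each tested member between powder and oral vehicle in colon at day 4 (left) and day 7 (right), with bars of 1 SE. Blue points are lower at an adjusted p under 0.05. At day 4 there are 18 blue points and at day 7 none.

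Of the 18 members higher after irradiation in colon at day 4, 14 were among the 18 lower with the powder, in comparisons that share no library: Ddx58, Dtx3l, Eif2ak2, Gbp2, Gbp4, Gbp5, Herc6, Ifih1, Ifit2, Ifit3, Irf7, Mx2, Parp14 and Parp9. The other 4 higher after irradiation were Cxcl9, Cxcl10, Cxcl11 and Ifitm3, and the other 4 lower with the powder were Mx1, Oasl, Rsad2 and Trim25. Both comparisons came from one fit. Of all 13306 genes in it, 24.6% were higher after irradiation and 6.90% lower with the powder. How many genes were both was not counted, so the overlap is not shown to be particular to the members. Of the 14, 11 were matched to a promoter in the RefSeq table used here and 9 of these hold the ISRE core. Cxcl9, Cxcl10, Cxcl11 and Ifitm3 were all matched, with the ISRE core in 2 (Cxcl10 and Ifitm3) and the GAS core in 3. Mx1, Oasl, Rsad2 and Trim25 were all matched too, with the ISRE core in 1 (Rsad2). Of the 7 members called in none of the 4 irradiation comparisons, 6 were matched and 4 of these hold the ISRE core. Of the 38 members tested in every fit, 31 were matched and 19 of these hold it. These are counts of letters in a handful of genes, and nothing about a factor is read from them.

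**Figure D5:**
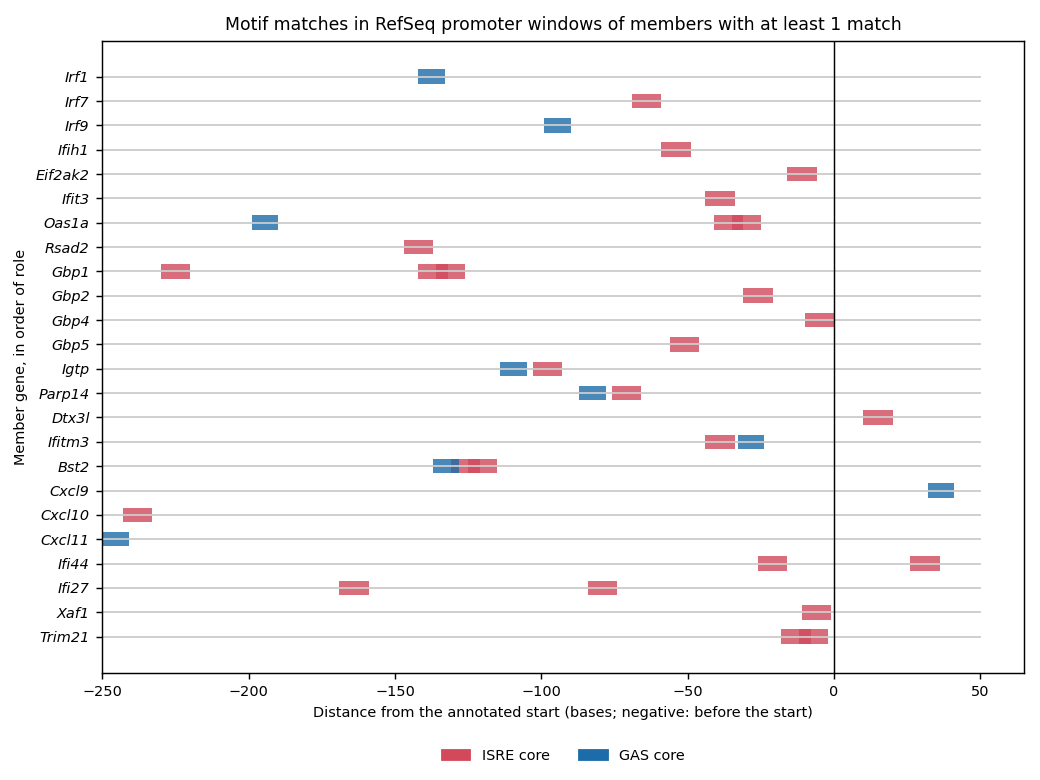
Place of the ISRE core and the GAS core in the members' promoters, as distance in bases from the gene start. Rows are members with a match, and the ISRE matches of Gbp2, Gbp4, Gbp5, Eif2ak2, Ifit3, Irf7, Ifih1 and Parp14 lie within 100 bases before the start.

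Neutrophil markers were lower with the powder too. Their summed level in colon at day 4 was 5.76, 32.8 and 123 CPM with oral vehicle and 2.70, 5.34 and 22.8 CPM with the powder, all 4 tested markers being lower: S100a8 (log2 -2.38), S100a9 (-2.52), Csf3r (-2.001) and Cxcr2 (-3.94). Elane was at 0 counts with the powder. The macrophage and monocyte sum was 209, 276 and 427 CPM against 132, 333 and 364 CPM with 0 of 10 called. The fibroblast sum was 13.2, 30.2 and 70.4 CPM against 13.3, 26.9 and 134 CPM with 0 of 6 called. Mitochondrial counts made up 8.40 ± 1.88% with vehicle and 9.58 ± 1.99% with the powder (SD, n = 6). The part of neutrophils in the members' difference was not tested.

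Elsewhere no member was called with the powder. In colon at day 7 edgeR called 0 of 39, as did DESeq2, with 10 at an unadjusted p under 0.05, a median of -0.21 and 0% of all genes called. Mx2 was at 7.22, 33.4 and 53.1 CPM with vehicle and 4.43, 6.59 and 9.58 CPM with the powder (log2 -2.09 ± 0.51), with an adjusted p of 0.595 in edgeR. Usp18 changed by -1.26 ± 0.33, with the same adjusted p. Gbp2 was at 216, 306 and 504 CPM with vehicle and 197, 552 and 1060 CPM with the powder (log2 1.00 ± 0.61). In jejunum at day 4 edgeR and DESeq2 called 0 of 38, with 8 at an unadjusted p under 0.05, a median of -0.24 and 0.00800% of all genes called. Ifit3 was at 5.26, 43.3 and 132 CPM with vehicle and 12.3, 16.3 and 30.5 CPM with the powder (log2 -1.36 ± 0.51, adjusted p = 0.988). In jejunum at day 7 both tools called 0, with 0 at an unadjusted p under 0.05 and a median of 0.11, and 0.00800% of all genes were called.

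Whether the powder's effect in colon differed between the days was tested as an interaction. edgeR called 0 members, with 15 at an unadjusted p under 0.05 and a median difference of 0.44, and 0% of all genes. DESeq2 called 3. The nearest was Gbp2, with a difference of 4.31 ± 0.90 and an adjusted p of 0.055 in edgeR. The day 4 effect in colon is therefore not shown to differ from the day 7 effect by edgeR. In jejunum the same test called 0 in both tools, with 4 at an unadjusted p under 0.05.

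No member was called between oral vehicle and untreated irradiated tissue, which does not show that the vehicle has no effect. edgeR and DESeq2 called 0 in colon and jejunum on both days, with 3 and 5 members at an unadjusted p under 0.05 in colon at day 4 and day 7 and 0 and 2 in jejunum. Of all genes, 0% and 0.00752% were called in colon and 0% and 0.00800% in jejunum. Ifit2 was at 13.8, 20.5 and 39.3 CPM untreated and 18.3, 47.8 and 106 CPM with oral vehicle in colon at day 4 (log2 1.14 ± 0.40), and the groups overlapped.

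No member was called between the injection and injected vehicle, which does not show that the injection has no effect. edgeR and DESeq2 called 0 of 38 in both tissues on both days, with 0, 1, 6 and 1 members at an unadjusted p under 0.05 in colon at day 4, colon at day 7, jejunum at day 4 and jejunum at day 7, and 0% of all genes were called in each. Gbp2 in colon at day 4 was at 12.6, 423 and 887 CPM with injected vehicle and 26.3, 77.8 and 1247 CPM with the injection (log2 -0.71 ± 0.85, adjusted p = 0.877). The groups covered nearly the same range. Ifit3 was at 1.42, 7.28 and 19.3 CPM against 0.497, 3.44 and 16.6 CPM (log2 -0.66 ± 0.58, adjusted p = 0.871).

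In jejunum at day 4, the 6 members with an unadjusted p under 0.05 were lower with the injection: Dtx3l (log2 -0.65 ± 0.23), Parp9 (-0.59 ± 0.24), Irf1 (-0.52 ± 0.24), Parp14 (-0.51 ± 0.25), Stat2 (-0.43 ± 0.19) and Eif2ak2 (-0.35 ± 0.14), with edgeR adjusted p-values of 0.580 to 0.585. Mitochondrial counts made up 18.5 ± 9.06% with injected vehicle and 21.8 ± 8.86% with the injection there (SD, n = 6). The interaction of injection and day called 0 members in each tissue, in edgeR and in DESeq2, with 3 at an unadjusted p under 0.05 in each and 0% of all genes called. Powder and injection were not compared with each other, since their libraries belong to different series and have different vehicles.

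Across the 22 groups the mean log2(CPM + 1) over the 38 members tested in every fit gives the order of levels. In colon, group medians ran from 3.35 without irradiation through 3.91 with the powder at day 4 to 4.36 with the powder at day 7, 4.39 untreated on both days, 4.53 with oral vehicle at day 7 and 4.64 with oral vehicle at day 4. In jejunum they were 3.92 without irradiation and with oral vehicle at day 7, 4.11 with the powder and 4.29 untreated at day 7, and 4.78 with the powder, 5.17 with oral vehicle and 5.23 untreated at day 4. The irradiated libraries of the injected groups had medians from 4.11 to 4.47 in colon and from 3.56 to 4.86 in jejunum. Libraries of a group spread widely in jejunum, from 3.25 to 4.80 with injected vehicle at day 7, and neighbours in the jejunum order do not differ beyond their spread.

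The upstream parts of the pathway were examined from a separate list of 68 genes, 61 of which have a row. The interferon genes themselves were hardly counted. Over 132 libraries, Ifnb1 had 0 counts, Ifna1 and Ifnl1 1 each, Ifna4 2, Ifnl3 4, Ifng 23, Ifne 102 and Ifnk 379, and none passed the filter. Ifna2 and Ifna5 were not analysed here. At this depth, a change in interferon transcripts was not detectable.

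Most receptor chains were lower at day 7 after irradiation. In jejunum at day 7 all 5 tested were lower than without irradiation, as were 27.4% of all genes: the type I receptor chains Ifnar1 (log2 -0.85 ± 0.14) and Ifnar2 (-0.83 ± 0.14), the interferon-γ receptor chains Ifngr1 (-0.71 ± 0.13) and Ifngr2 (-1.10 ± 0.25), and the type III receptor chain Ifnlr1 (-1.05 ± 0.23). Of these, 4 did not overlap with non-irradiated jejunum, against 27.0% of all genes. At day 4 in jejunum 3 of 5 were lower, against 18.9% of all genes. In colon at day 7, 4 of 5 were lower, against 30.8% of all genes, among them Ifnar1 (log2 -0.87 ± 0.12), and at day 4 Ifnar2 was lower (-0.28 ± 0.11) and Ifngr1 higher (0.30 ± 0.13). None was called with the powder in colon at day 4. Il10rb, the second chain of the type III receptor, had 5 counts in all and was not tested. How reads were assigned to its row is not known here, so its few counts are not read as absent or low expression.

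Inhibitors of the pathway changed as well. Socs3, which blocks JAK kinases at cytokine receptors, went from 3.25, 4.68 and 30.2 CPM in non-irradiated colon to 25.3, 99.8 and 260 CPM at day 4 (log2 3.54 ± 0.59). Socs1, the main brake on interferon receptors, went from 2.46, 3.37 and 6.66 CPM to 6.52, 17.3 and 48.8 CPM (log2 2.34 ± 0.47). With the powder at day 4 Socs1 (log2 -1.64 ± 0.45, adjusted p = 0.0165) and Socs3 (-1.94 ± 0.54, adjusted p = 0.0190) were lower. In untreated jejunum Socs1 (log2 -3.21 ± 0.43) and Socs3 (-2.86 ± 0.74) were lower at day 7 than at day 4.

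Of the genes that lead to interferon production, Sting1, the adaptor of cytosolic DNA sensing, was at 0.907, 1.83 and 4.38 CPM in non-irradiated colon and at 24.8, 143 and 268 CPM at day 4, 52.3-fold higher (log2 5.71 ± 0.78, adjusted p = 6.18e-07). At day 7 it was at 57.2, 216 and 338 CPM (log2 6.55 ± 0.80). With the powder at day 4 it was at 3.88, 7.54 and 48.7 CPM against 10.7, 112 and 403 CPM with oral vehicle, 11.5-fold lower with overlap (log2 -3.52 ± 0.68, adjusted p = 0.00181). Mavs, the adaptor of the RNA sensors, was lower in irradiated colon, at 90.3, 95.6 and 123 CPM before and 43.2, 54.8 and 63.0 CPM at day 4 (log2 -0.90 ± 0.13). Ikbke, a kinase that activates interferon regulatory factors, was higher by 0.76 ± 0.12. In jejunum Sting1 was near 1 CPM, at 0.278, 0.647 and 1.34 CPM before and 0.306, 1.32 and 6.00 CPM at day 4 (log2 1.76 ± 0.66).

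Over the whole pathway list, 23 of 52 tested genes were higher and 6 lower in colon at day 4, against 24.6% and 22.3% of all genes. In colon at day 7 it was 18 higher and 14 lower, against 32.9% and 30.8%, and in jejunum at day 4 13 and 9 of 50, against 25.0% and 18.9%, both near the share of all genes. In jejunum at day 7 it was 6 and 18 of 50, against 31.4% and 27.4%. In untreated jejunum 2 of 50 were higher and 22 lower at day 7 than at day 4, against 20.3% and 20.7%. With the powder in colon at day 4, 1 of 52 was higher and 13 lower, against 4.89% and 6.90%. Among the 28 tested of its further interferon-induced genes, 15 were higher and 0 lower in colon at day 4, Gbp7 the most clearly (log2 4.10 ± 0.58), and 7 were lower and 0 higher with the powder, among them Helz2 (-0.83 ± 0.17), Oasl2 (-1.40 ± 0.29) and Oas3 (-1.05 ± 0.27).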

How the data were processed

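Total RNA of colon and jejunum epithelium was sequenced on a DNBSEQ-G400 as paired 150-base reads, per the labels' protocols. The authors deposited whole-number read counts per gene, not normalized, in 2 tables with 168 library columns, in which 36 libraries appear in both with equal values. The submitters' processing notes name STAR 2.7.10a and the rat assembly mRatBN7.2. Neither the counting program nor its gene annotation or use of strand is named in the labels. Libraries were taken once each, and no row was removed.

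Genes were filtered with filterByExpr, scaled with TMM and tested with edgeR 4.0.16 (quasi-likelihood, limma 3.58.1, R 4.3.3), with Benjamini-Hochberg adjustment over all genes of a fit. Fits held the 42 libraries of a tissue in series 1 and 2, with series as a term, the 24 injected libraries of a tissue, or 84 libraries for differences between tissues. In simulated counts, the fit of colon in series 1 and 2 recovered changed genes for powder against oral vehicle at day 4. The simulation gave every gene the same spread and held no difference between series. The other fits were not simulated. Labels call the libraries biological replicates and name no rats, so p-values measure the spread between these libraries. The members, lists and tests were chosen with earlier results of these data known.

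Values are given in full for up to 5 called members with the highest and up to 5 with the lowest fold change among those with a mean of at least 1 CPM in either group, and for a fixed panel of 14 members in the irradiation comparisons. Of other pathway genes, ligands and receptors are named, and up to 3 called genes of each other role. Further members were named after their values were seen. Alternatives were DESeq2 1.42.0 with its size factors, no filter on low counts, the replicate number as a block, each library series alone, only the 2 groups compared, and the mitochondrial share as a covariate. Leaving out 1 library at a time, in 5 comparisons, was added after the data were seen. Same-numbered libraries were not treated as pairs. In no comparison did every one of 6 pairs correlate above 0.1 in their deviations from the group means. That rule is strict and cannot exclude pairing. Mean correlations of the 6 pairs ran from -0.397 (untreated jejunum, day 7 and day 4) to 0.257 (powder and oral vehicle, jejunum day 7). Libraries of different numbers had means of 0.078 and -0.043 there. Libraries held 17196039 to 19800746 counts, and after scaling 1 CPM stood for 11.5 to 28.7 counts, depending on the library. Counting intervals are exact and cover counting error only. Motifs were searched in RefSeq promoters of GRCr8, another assembly than that of the counts, so no coordinate of the counts is given.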

Additional observations from a re-analysis of the deposited data

Results flagged for a closer look

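Single libraries stood apart from the other 5 of their group, by Dixon's ratio, in 7 of 88 sets of values examined. These are the 22 groups, each taken for the mean over members and for the CPM of Gbp2, Ifit3 and Cxcl10. Chance alone marks about 1 in 20 if values are normally distributed and sets independent. The sets share libraries, and CPM were not log-transformed, so that rate is only a rough guide here. For Gbp2 this held in colon at day 4 for library 5 of the oral vehicle group (1003 CPM, the next 292 CPM), library 6 of the powder group (94.6 CPM, the next 24.1 CPM) and library 1 of the injection group (1247 CPM, the next 184 CPM), and in jejunum at day 4 for library 5 of the injected vehicle group (55.8 CPM, the next 21.2 CPM). For Ifit3 it held for library 6 of the powder group in colon at day 4 (2.48 CPM, the next 1.13 CPM) and library 6 of the powder group in jejunum at day 7 (8.07 CPM, the next 5.56 CPM). The mean log2(CPM + 1) over 38 members was apart for library 6 of the injection group in colon at day 7, at 4.64, the next being 4.14. All 7 were the highest of their group, and 2 of them, for Gbp2 and Ifit3, are the same powder library.

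The response to irradiation differed between jejunum and colon, by a test of the difference itself, for 17 of 39 members at day 4 and for 15 at day 7.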

How the results depend on the processing

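Across the 29 comparisons, 201 of 220 recomputed counts of called members stayed within 1.5 times the value reported. Comparisons with 0 called members count among these when they gave 0 again, so the 201 do not measure how steady the other counts are. With series 1 alone, 8 counts moved and 13 stayed. Of 2807 recomputed values of single called members, 2418 kept their direction and their call, 385 lost the call and 4 changed direction. Series 1 alone gave 14 called members for irradiation in colon at day 4, 5 and 7 in jejunum at day 4 and day 7, 1 for day 7 against day 4 in untreated jejunum, 10 and 0 with oral vehicle in colon and jejunum, 0 for the powder in colon at day 4 and 2 for the tissue difference at day 4. Series 2 alone gave 14 for irradiation in colon at day 7, 7 for the days in untreated colon, 0 with oral vehicle in colon, 0 for the powder in colon at day 4 and 8 for the tissue difference at day 4. Fits of a single series hold fewer libraries. The share of all genes called can differ in them and is not printed beside these counts. With only the 2 groups compared, the days gave 7 in untreated colon, 12 in untreated jejunum and 11 in oral vehicle jejunum. The mitochondrial share as a covariate gave 2 in colon at day 7 and 3 for the days in untreated colon, and DESeq2 gave 3 for the powder's effect between days in colon. The cause was not tested.

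The 4 reversed values were Oas1a at 0.19 and Trim25 at -0.19 for irradiated colon at day 7 with the mitochondrial share, and, within series 1, Ifi27 at -0.062 for irradiated jejunum at day 4 and Mx1 at 0.060 for the days in untreated jejunum, all on the log2 scale. Leaving out 1 library at a time, chosen after seeing the data, gave 19 to 22 called members in irradiated colon at day 4, 23 to 25 at day 7, 21 to 25 in irradiated jejunum at day 4, 14 to 25 for the days in untreated jejunum and 12 to 18 for the powder in colon at day 4.

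By a rule that cannot exclude pairing, the replicate number was not taken to pair the libraries. With it as a block, irradiation gave 21, 25, 22 and 14 called members in colon at day 4 and day 7 and jejunum at day 4 and day 7, the days 20 in untreated jejunum, and the powder 17 in colon at day 4, against 22, 25, 22, 14, 20 and 18 without it. Colon and jejunum libraries of one number had a mean correlation of 0.101 in series 1 and 2, with 22 of 42 over 0.1, and of 0.137 in series 3, with 13 of 24. No correlation between colon and jejunum libraries of different numbers was computed, so these values cannot decide whether a rat is shared. The tests between tissues held no term for a shared rat in the main fit.

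Members with few counts are measured less surely: over 132 libraries Gbp1, Irf9 and Ifit1 hold 423, 1527 and 3138 counts. Whether depth or the assignment of reads lies behind the few counts was not tested.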
